A study of Mus musculus with 30 samples.

Results

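RNA of 10 Notch pathway genes was followed through 18 sequencing libraries of mouse cells: the 4 receptors Notch1, Notch2, Notch3 and Notch4, the 4 ligands Dll1, Dll4, Jag1 and Jag2, and the 2 target genes Hes1 and Hey1. They were chosen by name and matched to Ensembl identifiers, and all 10 were found among the 55487 genes of each count table. On GRCm38 Notch1, Dll4 and Jag1 lie on chromosome 2, Notch2 and Hey1 on chromosome 3, Notch3, Notch4 and Dll1 on chromosome 17, Jag2 on chromosome 12 and Hes1 on chromosome 16. The genes with the clearest DOX response are Notch4 (ENSMUSG00000015468, chr17:34564286-34588543), Notch2 (ENSMUSG00000027878, chr3:98013538-98150367) and Dll1 (ENSMUSG00000014773, chr17:15367354-15376932). The study asked how ETV2, a transcription factor of the ETS family that the embryo requires to form vessels and blood, works with the H3K9 demethylase KDM4A. RNA was sequenced in 6 groups of 3 libraries, and H3K9me3, a repressive histone mark, was mapped by ChIP-seq in 3 libraries with and 3 without doxycycline (DOX).

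Every group carries the label embryonic stem cell. The first 2 groups belong to the iETV2 line, whose Etv2 is induced with DOX, sampled with DOX and without it. The next 2 groups belong to the line iETV2-KDM4A (H188A), named H188A in what follows, also with DOX and without it; the design text has DOX raise both ETV2 and KDM4A there. Its name gives the KDM4A variant H188A, a change of a histidine that holds the iron of the catalytic site. The last 2 groups are cells with the label KDM4A/4C DKO, in which both demethylase genes are said to be knocked out, and their control cells. No DOX treatment and no parental line is named for this last pair. The labels give neither the culture time nor the number of clones, and they do not say that the 3 libraries of a group came from separate cultures. A p-value here therefore measures only the spread between these libraries, which may be technical. Line and experiment cannot be told apart in comparisons between the 2 lines.

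In Notch signalling a ligand on one cell binds a receptor on its neighbour, which lets ADAM proteases and then gamma-secretase cut the receptor. The freed intracellular part enters the nucleus, joins RBPJ and a Mastermind coactivator, and turns on genes of the HES and HEY families, which encode transcriptional repressors. In the early embryo the pathway times the segmentation of the presomitic mesoderm, where Dll1 is a main ligand. In blood vessels it sets arterial identity and restrains sprouting, with Dll4 and Jag1 as ligands and Notch1 and Notch4 as endothelial receptors.

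Promoter sequence was available for 8 of the 10 genes, Hes1 and Hey1 having no entry. The 250 bases before the RefSeq start (GRCm38.p6) are shown for the receptor that rose most with DOX in the iETV2 line (Notch4), for the receptor that fell with DOX there (Notch2) and for the ligand that fell with DOX in both lines (Dll1). They are written 5′ to 3′ on the gene's own strand, and capitals mark each GGAA, the core that ETS factors bind, or its reverse complement TTCC. Each start is the listed RefSeq start nearest the gene's outer end, which for Notch4 lies 9 bases inside the gene.
Notch4, chr17:34564045-34564294, plus strand: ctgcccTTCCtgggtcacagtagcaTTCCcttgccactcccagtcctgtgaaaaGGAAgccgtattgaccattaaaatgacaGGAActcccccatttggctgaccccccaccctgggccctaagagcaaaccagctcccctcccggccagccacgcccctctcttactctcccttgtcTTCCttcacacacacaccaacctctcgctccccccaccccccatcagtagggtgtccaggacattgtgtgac
Notch2, chr3:98013288-98013537, plus strand: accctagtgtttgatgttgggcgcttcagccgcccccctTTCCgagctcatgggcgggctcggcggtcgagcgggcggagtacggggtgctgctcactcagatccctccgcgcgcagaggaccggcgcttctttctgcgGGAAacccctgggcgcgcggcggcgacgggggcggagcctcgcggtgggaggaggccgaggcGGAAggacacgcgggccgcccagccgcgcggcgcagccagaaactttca
Dll1, chr17:15376933-15377182, minus strand: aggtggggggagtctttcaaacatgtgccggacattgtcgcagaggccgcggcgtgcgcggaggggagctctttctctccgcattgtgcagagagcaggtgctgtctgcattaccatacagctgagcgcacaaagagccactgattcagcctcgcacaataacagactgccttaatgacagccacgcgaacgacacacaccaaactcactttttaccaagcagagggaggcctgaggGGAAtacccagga

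Notch4 had 5 GGAA matches in this window, Notch2 had 3 and Dll1 had 1. Among the others there were 4 in Notch1, 3 in Jag1, 2 in Dll4 and none in Notch3 and Jag2. The start used lay 6 bases inside the gene for Notch3 and 317 bases inside it for Jag2. The Jag2 window thus lies within the gene and not before its outer end. Over 32851 promoter windows of the same length 93.4% held at least 1 match on either strand, with a median of 3, so matches at this rate are the background. This 4-letter core was searched after the longer ones had been seen to give nothing. The longer ETS core CCGGAA, which contains GGAA and occurs in 12% of all windows, was in none of the 8. The RBPJ core TGGGAA, which also contains GGAA and occurs in 21.6%, was in none of them either. A match of letters is a description of the sequence and not evidence of binding.

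Levels are given as CPM, counts scaled by the library total. Totals ran from 40334911 to 68970038 counts, and how far 3 libraries of a group differ sets the precision. Gene lengths were not used, so levels are compared between groups and not between genes. A log2 change is given ± SE, and "rose", "fell" and "changed" refer to an adjusted p under 0.05 in edgeR's quasi-likelihood test with Benjamini-Hochberg adjustment over all genes tested. All 10 genes passed the low-count filter in each of the 6 comparisons. Etv2 rose with DOX in both lines, by 2.68 ± 0.10 in iETV2 and by 5.48 ± 0.35 in H188A on the log2 scale. Its mean was 18.6 CPM with DOX and 2.93 CPM without DOX in iETV2, and 15.2 and 0.376 CPM in H188A. The H188A libraries without DOX held only 27, 8 and 22 Etv2 counts. With DOX the difference between the lines did not pass the test (-0.20 ± 0.19, adjusted p = 0.437). Kdm4a had 83.6, 88.6 and 88.5 CPM in H188A with DOX, against 82.8, 87.0 and 80.6 CPM without DOX (log2 change 0.11 ± 0.05, adjusted p = 0.262). The sources used here do not say whether these counts include RNA of the KDM4A variant.

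The cell type label was checked against 8 embryonic stem cell and epiblast markers, summed in CPM. Their sum was 549 to 641 in iETV2 with DOX and 847 to 897 without DOX, 1079 to 1314 in H188A with DOX and 1140 to 1217 without DOX, and 864 to 918 in cells labelled DKO. In the control cells of the DKO experiment it was 39.1 to 41.9, while 8 blood markers summed to 1281 to 1338 CPM and 10 endothelial markers to 629 to 636 CPM. The control cells thus carry the label of embryonic stem cells with low levels of their markers. In the cells labelled DKO, Kdm4a had 42.9, 46.9 and 42.0 CPM, against 53.9, 54.4 and 55.7 CPM in control cells, and fell (log2 change -0.44 ± 0.05, adjusted p = 6.82e-08). Kdm4c had 48.0, 42.7 and 46.0 CPM in cells labelled DKO, against 30.2, 32.2 and 29.6 CPM in control cells, and was higher (0.45 ± 0.06, adjusted p = 5.02e-07). Kdm4c thus went against the label in whole-gene counts, which cannot show a small edit, and the cells are called by their label.

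**Figure D1:**
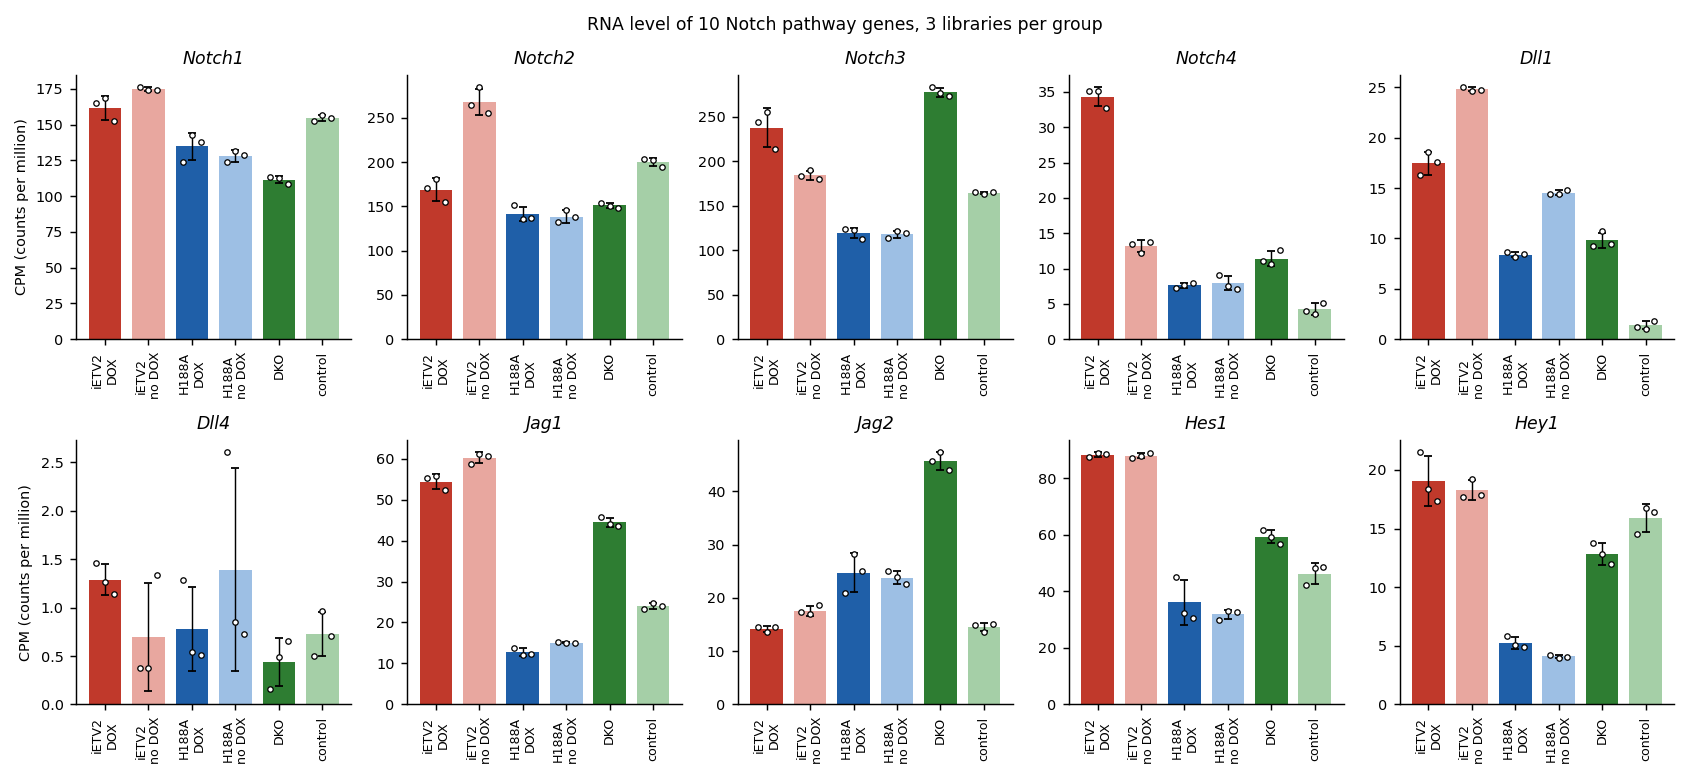
RNA level in CPM (y axis, linear, from 0) of each of the 10 genes in the 6 groups. Bars are means, error bars SD and points the 3 libraries; Notch4 stands highest in iETV2 with DOX (34.3 CPM), Dll1 lowest in the control cells of the DKO experiment (1.38 CPM), and Jag1, Hes1 and Hey1 are lower in both H188A groups than in both iETV2 groups.

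In the iETV2 line DOX changed 5 of the 10 genes. The receptors Notch4 and Notch3 rose, the receptor Notch2 and the ligands Dll1 and Jag2 fell, and neither target gene passed the test. Over all 22025 genes tested, 13.7% were called higher and 13.3% lower, beside 2 and 3 of these 10. The median log2 change of the 10 genes was -0.04, beside 0.00 for all genes.

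Notch4, a receptor found mainly in endothelial cells, had 35.1, 35.1 and 32.8 CPM in iETV2 with DOX, against 13.5, 12.2 and 13.8 CPM without DOX. All 3 treated libraries lay far above the untreated ones. The fold change was 2.64 (log2 change 1.40 ± 0.08, adjusted p = 8.72e-10), the largest among the 10 genes in this line by size. The 10 endothelial markers rose as well, all 10 of 10, and their sum was 455 to 468 CPM with DOX, against 24.7 to 29.4 CPM without it. In bulk RNA more cells of a type and more RNA per cell cannot be told apart, and the part of such cells in the Notch4 change was not tested.

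Notch2, the receptor that moved the other way, had 170, 181 and 155 CPM in iETV2 with DOX, against 264, 285 and 255 CPM without DOX. The 2 groups did not overlap, and the level fell to 0.636 of that without DOX (log2 change -0.65 ± 0.08, adjusted p = 1.44e-05). Notch3, known as the receptor of vascular smooth muscle, had 244, 255 and 213 CPM with DOX, against 183, 190 and 180 CPM without DOX. Its groups did not overlap either, although the treated libraries were more spread, and it rose by 0.38 ± 0.08 (adjusted p = 0.00206). Notch1, the receptor most widely used across tissues, averaged 162 ± 8.5 CPM with DOX and 175 ± 1.3 CPM without DOX (SD, n = 3 each). Its highest treated library stayed below every untreated one, but the change of -0.10 ± 0.07 did not pass the test (adjusted p = 0.386).

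Among the ligands none rose in the test. Dll1 had 16.3, 18.6 and 17.6 CPM in iETV2 with DOX, against 25.0, 24.6 and 24.8 CPM without DOX. The untreated libraries were close together and above all treated ones, and Dll1 fell by 0.49 on the log2 scale (SE 0.08, adjusted p = 0.000111). Jag2 had 14.6, 13.5 and 14.5 CPM with DOX, against 17.3, 16.9 and 18.6 CPM without DOX. Here too the groups were apart, with a smaller change (-0.30 ± 0.08, adjusted p = 0.00996). That call was lost without the low-count filter, where the adjusted p was 0.134. Jag1 had 55.2, 55.7 and 52.3 CPM with DOX, against 58.7, 61.2 and 60.7 CPM without DOX, groups that did not overlap but a change of only -0.13 ± 0.07 (adjusted p = 0.177). It passed the threshold under a stricter filter (adjusted p = 0.0338).

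Dll4, the ligand of arterial and sprouting endothelium, was near the lower end of detection. Its counts were 83, 86 and 63 in iETV2 with DOX and 22, 25 and 57 without DOX, which is 1.46, 1.26 and 1.15 CPM against 0.378, 0.379 and 1.34 CPM. One untreated library, replicate 3, reached the level of the treated ones, and the other untreated libraries stood well below. The change of 0.95 ± 0.44 did not pass the test (adjusted p = 0.135). Without that library it was 1.74 and passed (adjusted p = 0.0032), and with each other library left out it was lower than that and did not pass, down to 0.67. The summed CPM of 1754 odorant, pheromone and trace-amine receptor genes, which these cells are not known to use, was also highest in that library of the untreated group, at 182 against 88.5 and 65.2. With DOX the sum was 82.0, 99.2 and 181 CPM, highest in replicate 3, the treated library with the lowest Dll4. Over all 18 libraries the correlation of Dll4 with the log2 of this sum was 0.44, a description only, and its part in the Dll4 values was not tested. A long noncoding RNA gene, Gm14207, overlaps the Dll4 locus, and since the strand setting of the counting is not known the Dll4 counts are uncertain.

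Hes1 and Hey1, the repressor genes that Notch activity turns on in many tissues, were close to level with DOX in this line. Hes1 had 87.3, 88.8 and 88.6 CPM in iETV2 with DOX, against 87.1, 87.9 and 88.8 CPM without DOX. The 2 groups overlapped throughout, and the difference was 0.02 ± 0.06 (adjusted p = 0.89). Hey1 had 21.5, 18.4 and 17.4 CPM with DOX, against 17.7, 19.2 and 17.9 CPM without DOX, with a difference of 0.07 ± 0.10 (adjusted p = 0.672).

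**Figure D2:**
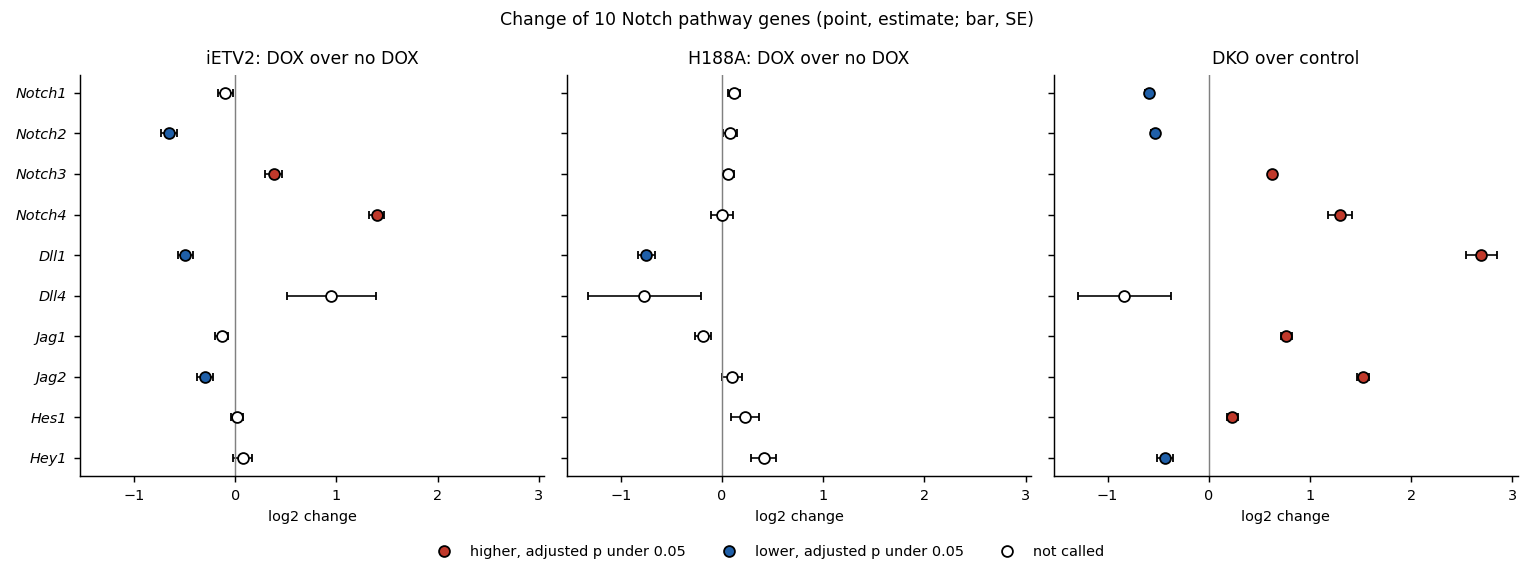
Log2 change (x axis) of the 10 genes with DOX in iETV2, with DOX in H188A, and in cells labelled DKO over control cells; points are estimates, bars SE, and filled points passed the test (red higher, blue lower). With DOX in H188A the ligand Dll1 (-0.75) is the only filled point, while 9 of the 10 are filled for DKO.

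In the H188A line 1 of the 10 genes changed with DOX. Dll1 had 8.65, 8.13 and 8.44 CPM in H188A with DOX, against 14.4, 14.5 and 14.8 CPM without DOX. Every treated library was far below every untreated one, and Dll1 fell to 0.597 of its untreated level (log2 change -0.75 ± 0.08, adjusted p = 0.00246). This call held under every alternative tried. Of the 21086 genes tested in this line 2.22% were called higher and 0.801% lower, beside 0 and 1 of the 10 Notch genes; their median was 0.07, beside -0.01 for all genes. The number of genes called over the whole table, 637, moved with single libraries: it was 203, 81 and 1839 without replicates 1, 2 and 3 of the untreated group, and 140 and 91 without replicates 2 and 3 of the treated group.

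None of the 4 receptors passed the test in H188A. Notch4 had 7.28, 7.67 and 7.94 CPM with DOX, against 9.07, 7.57 and 7.12 CPM without DOX, overlapping groups with a difference of -0.0011 ± 0.11 (adjusted p = 0.996). Notch2 had 151, 136 and 137 CPM with DOX, against 132, 146 and 138 CPM without DOX (0.08 ± 0.07, adjusted p = 0.496). Notch3 averaged 119 ± 6 CPM with DOX and 118 ± 3.9 CPM without DOX, and Notch1 135 ± 9.6 and 128 ± 3.9 CPM in the same order (SD, n = 3 each). Treated and untreated libraries overlapped for all 4 receptors. In this line 6 of the 10 endothelial markers rose, and their sum was 254 to 268 CPM with DOX, against 137 to 149 CPM without DOX.

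The other ligands and the targets gave no call in H188A. Jag1 had 13.9, 12.1 and 12.4 CPM with DOX, against 15.2, 15.1 and 14.9 CPM without DOX; the groups were apart, and the change of -0.19 ± 0.08 had an adjusted p of 0.222. Hey1 had 5.87, 5.03 and 4.91 CPM with DOX, against 4.21, 3.98 and 4.09 CPM without DOX. These groups were apart as well, with 0.41 ± 0.13 (adjusted p = 0.108). Hes1 had 45.2, 32.5 and 30.6 CPM with DOX, against 30.0, 32.9 and 32.5 CPM without DOX, so only replicate 1 of the treated group stood out (0.23 ± 0.13, adjusted p = 0.34). That library was also apart in the sum of 7 endoderm markers, 205 CPM against 90.8 and 95.0 CPM in the other treated libraries and 108 to 126 CPM without DOX, and the part of such cells was not tested. Jag2 averaged 24.7 ± 3.7 CPM with DOX and 23.8 ± 1.2 CPM without DOX, with overlapping libraries. Dll4 had 1.29, 0.539 and 0.515 CPM with DOX, against 2.60, 0.852 and 0.725 CPM without DOX, and replicate 1 was the highest library in both. The untreated replicate 1 also had the highest sum of odorant and related receptor genes of all libraries, 598 CPM, and without it the Dll4 change of -0.77 ± 0.56 became 0.01. With DOX the sum was 41.1, 92.6 and 34.8 CPM in replicates 1, 2 and 3, so replicate 1 was not the highest there.

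Whether DOX acted differently in the 2 lines was tested as an interaction over their 12 libraries, H188A response minus iETV2 response. Notch4 and Notch2 differed, and Jag2 was at the threshold. For Notch4 the difference was -1.39 ± 0.13 (adjusted p = 2.04e-06), where it rose with DOX in iETV2 and had a change of -0.0011 in H188A. For Notch2 it was 0.74 ± 0.13 (adjusted p = 0.000871), where the fall in iETV2 stands beside 0.08 in H188A. For Jag2 it was 0.40 ± 0.12 (adjusted p = 0.0405). The Jag2 call depended on single libraries: it was held without replicate 1 of H188A with DOX (adjusted p = 0.0226) and lost without any other 1 of the 12, where the adjusted p was up to 0.118. Across 25516 genes 8.22% were called higher and 6.2% lower in this test, beside 2 and 1 of the 10; the median was 0.08 for the 10 and -0.13 for all genes.

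The interaction of Dll1, which fell in both lines, was -0.25 ± 0.11 and did not pass (adjusted p = 0.181), although a stricter filter gave an adjusted p of 0.0392. Notch3 had -0.31 ± 0.12 (adjusted p = 0.108), which passed without replicate 3 of iETV2 with DOX (-0.41, adjusted p = 0.0235) and under the stricter filter (adjusted p = 0.0139). Dll4 had -1.70 ± 0.78 (adjusted p = 0.174), which was -0.94 (adjusted p = 0.48) without replicate 1 of H188A without DOX and passed without replicate 3 of iETV2 without DOX (-2.48, adjusted p = 0.0365). The values were 0.22 ± 0.11 for Notch1, 0.22 ± 0.16 for Hes1, 0.34 ± 0.16 for Hey1 and -0.05 ± 0.11 for Jag1, none of which passed.

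The 2 lines differed in most Notch genes already without DOX. Jag1, Hes1 and Hey1 were then the furthest apart, all lower in H188A. Without DOX 1 gene was higher and 8 were lower in H188A than in iETV2, where 19.7% and 18.6% of all genes were called. With DOX 1 was higher and 6 were lower, where 19.9% and 17.6% of all genes were called. The median log2 difference of the 10 genes was -0.93 with DOX and -0.70 without it, beside -0.08 and 0.10 for all genes. The embryonic stem cell marker sum was higher in H188A as well (8 of 8 markers with DOX, 5 of 8 higher and 1 lower without). The 10 endothelial markers summed to 254 to 268 CPM in H188A and 455 to 468 CPM in iETV2 with DOX (2 higher and 4 lower), and to 137 to 149 CPM in H188A and 24.7 to 29.4 CPM in iETV2 without DOX (5 higher and 2 lower). The 8 blood markers summed to 31.6 to 34.2 CPM in H188A and 292 to 314 CPM in iETV2 with DOX (6 lower), and to 23.0 to 29.5 CPM in H188A and 13.1 to 17.8 CPM in iETV2 without DOX (2 higher and 2 lower). The part of these lists in the Notch differences was not tested.

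Jag1, a ligand of vessels and many epithelia, averaged 12.8 ± 0.93 CPM in H188A and 54.4 ± 1.8 CPM in iETV2 with DOX (SD, n = 3 each). Without DOX the means were 15.1 ± 0.14 CPM in H188A and 60.2 ± 1.3 CPM in iETV2. No library of either line came near the other line, and the log2 differences were -1.99 ± 0.08 with DOX and -1.95 ± 0.08 without it (adjusted p = 1.93e-11 and 1.80e-11). Hey1 differed by -1.77 ± 0.12 with DOX and -2.11 ± 0.12 without DOX (adjusted p = 5.80e-09 and 8.29e-10). Hes1 differed by -1.20 ± 0.11 with DOX and -1.41 ± 0.12 without DOX (adjusted p = 4.53e-07 and 6.46e-08). For these 3 genes each difference between the lines was larger in size than the DOX change within either line.

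The receptors were lower in H188A without DOX in all 4 cases, with log2 differences of -0.39 ± 0.08 for Notch1, -0.90 ± 0.09 for Notch2, -0.59 ± 0.09 for Notch3 and -0.69 ± 0.09 for Notch4. With DOX the gap of Notch4 was -2.08 ± 0.09 and that of Notch3 -0.90 ± 0.09. Notch2 and Notch1 no longer passed with DOX, at -0.17 ± 0.09 (adjusted p = 0.17) and -0.17 ± 0.08 (adjusted p = 0.0852). Under the stricter filter both passed (adjusted p = 0.0234 for Notch2 and 0.00619 for Notch1), and Notch1 also passed without replicate 3 of iETV2 with DOX (adjusted p = 0.0303). Among the other ligands Dll1 was lower in H188A (log2 difference -0.96 ± 0.08 with DOX and -0.72 ± 0.08 without it). Jag2 was the 1 gene higher in H188A, by 0.89 ± 0.09 with DOX and 0.49 ± 0.09 without DOX, the second of which was lost with no low-count filter (adjusted p = 0.0789). Dll4 did not pass (-0.64 ± 0.55 with DOX and 1.07 ± 0.55 without it), and both values moved with single libraries. The difference without DOX was 0.30 (adjusted p = 0.726) without replicate 1 of H188A without DOX and 1.85 (adjusted p = 0.0196) without replicate 3 of iETV2 without DOX, and the one with DOX ran from -1.21 to -0.41, at -1.21 without replicate 1 of H188A with DOX.

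**Figure D3:**
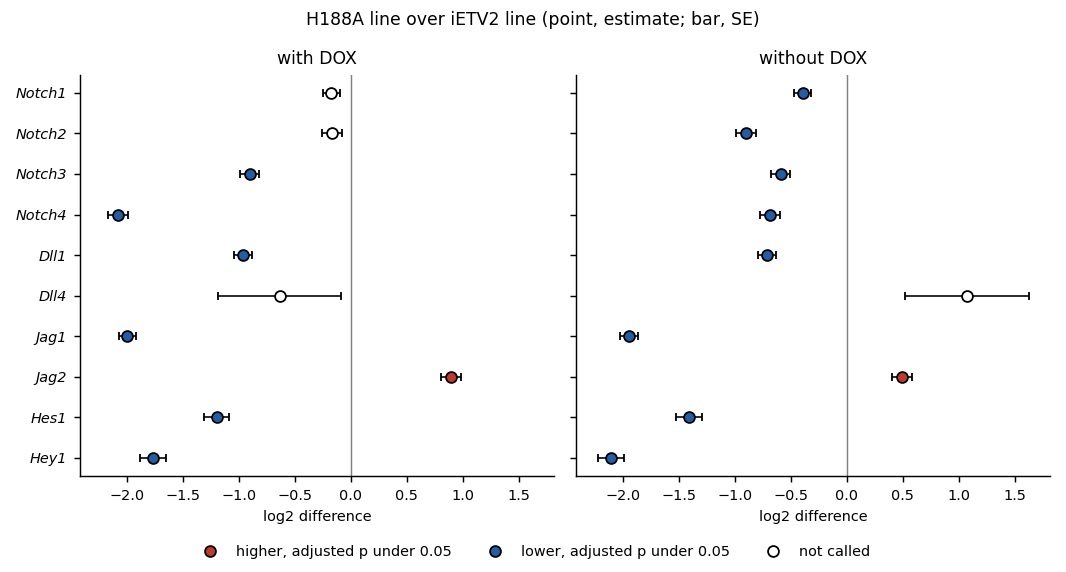
Log2 difference (x axis) of H188A over iETV2 with DOX (left) and without DOX (right) for the 10 genes; points are estimates, bars SE, filled points passed the test. Jag1 sits at -1.99 and -1.95 and Hey1 at -1.77 and -2.11, whereas Jag2 is the only filled point right of 0.

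In the cells labelled DKO 9 of the 10 genes differed from control cells, 6 higher and 3 lower. Of the 4 ligands 3 were higher, led by Dll1, and the receptors split into Notch3 and Notch4 higher and Notch1 and Notch2 lower. The background was high: 35.6% of 20426 genes were called higher and 33.7% lower. The median of the 10 genes was 0.43, beside 0.04 for all genes. All 9 calls held under every alternative tried, with the same direction.

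Dll1 had 9.30, 10.7 and 9.41 CPM in cells labelled DKO, against 1.24, 1.06 and 1.83 CPM in control cells. Counts were 402, 606 and 447 against 69, 54 and 116. No library came near the other group, and the fold change was 6.47 (log2 change 2.69 ± 0.15, adjusted p = 1.15e-12). Jag2 had 45.7, 47.3 and 44.1 CPM in cells labelled DKO, against 14.9, 13.7 and 15.1 CPM in control cells, a change of 1.53 ± 0.06 (adjusted p = 1.38e-15). Jag1 had 45.6, 44.0 and 43.6 CPM in cells labelled DKO, against 23.3, 24.7 and 24.0 CPM in control cells (0.77 ± 0.05, adjusted p = 3.09e-11). In all 3 ligands the libraries within a group were close together and the groups far apart. Dll4 was low in both, with 0.162, 0.494 and 0.653 CPM in cells labelled DKO, against 0.503, 0.961 and 0.712 CPM in control cells (-0.83 ± 0.46, adjusted p = 0.111).

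Notch4 had 11.0, 10.7 and 12.6 CPM in cells labelled DKO, against 4.01, 3.61 and 5.15 CPM in control cells (1.30 ± 0.12, adjusted p = 2.45e-09). Its level was thus above control in cells where the 10 endothelial markers summed to 151 to 156 CPM, against 629 to 636 CPM in control cells, and where 9 of 9 tested endothelial markers were lower. Notch3 had 283, 276 and 273 CPM in cells labelled DKO, against 166, 163 and 165 CPM in control cells (0.63 ± 0.04, adjusted p = 1.02e-12). Notch1 had 113, 113 and 109 CPM in cells labelled DKO, against 153, 157 and 155 CPM in control cells. Notch2 had 154, 151 and 148 CPM in cells labelled DKO, against 203, 203 and 195 CPM in control cells. Both fell, Notch1 with a log2 change of -0.59 ± 0.04 (adjusted p = 6.94e-12) and Notch2 with -0.53 ± 0.04 (adjusted p = 1.03e-10).

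The 2 targets moved apart. Hes1 had 61.6, 59.3 and 56.9 CPM in cells labelled DKO, against 42.1, 48.1 and 48.5 CPM in control cells, and was higher by 0.23 ± 0.05 (adjusted p = 0.000324). Hey1 had 13.8, 12.9 and 11.9 CPM in cells labelled DKO, against 14.5, 16.7 and 16.4 CPM in control cells, and fell by 0.43 on the log2 scale (SE 0.08, adjusted p = 6.00e-05). Neither gene overlapped between the groups, although the nearest libraries of Hey1 were close. Marker lists of other cells moved with this comparison: 8 of 8 embryonic stem cell markers were higher and 7 of 7 tested blood markers lower. The sum of 8 blood markers was 28.6 to 30.0 CPM in cells labelled DKO, against 1281 to 1338 CPM in control cells. Of 6 fibroblast markers 2 were higher and 4 lower. Their sum was 39.8 to 43.1 CPM in cells labelled DKO, against 433 to 445 CPM in control cells. Col1a1 made up most of the sum in control cells but not in cells labelled DKO. It averaged 13.8 ± 0.88 CPM in cells labelled DKO and 393 ± 2.5 CPM in control cells (SD, n = 3 each). No marker was at 0 in all libraries of a group, and the part of these differences in the Notch values was not tested.

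Set over all 6 groups, the genes differed in how far they ranged. The highest group mean was 18.0 times the lowest for Dll1, 8.07 times for Notch4, 4.70 times for Jag1, 4.66 times for Hey1 and 3.22 times for Jag2. It was 2.77 times for Hes1, 2.35 times for Notch3, 1.94 times for Notch2 and 1.57 times for Notch1. Dll4 has a ratio of 3.19, but each of its neighbouring groups overlapped, so its order is not resolved. For Dll1 and Jag1 no neighbouring groups overlapped, and how often this holds over all genes was not counted. Dll1 ran, from high to low, through iETV2 without DOX, iETV2 with DOX, H188A without DOX, cells labelled DKO, H188A with DOX and control cells. Jag1 ran through iETV2 without DOX, iETV2 with DOX, cells labelled DKO, control cells, H188A without DOX and H188A with DOX.

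For Notch4 iETV2 with DOX came first, iETV2 without DOX and cells labelled DKO overlapped, H188A without and with DOX overlapped, and control cells were last. For Notch3 only the 2 H188A groups, the lowest, overlapped, and cells labelled DKO were highest. For Notch2 iETV2 without DOX was highest and control cells came next, then iETV2 with DOX, while cells labelled DKO and the 2 H188A groups overlapped in turn at the low end. For Notch1 iETV2 without DOX was highest and cells labelled DKO lowest, with overlap between iETV2 with DOX and control cells and between the 2 H188A groups. For Jag2 cells labelled DKO led, the 2 H188A groups overlapped behind them, and iETV2 with DOX overlapped with control cells at the bottom. For Hes1 the 2 iETV2 groups overlapped at the top, and control cells and the 2 H188A groups overlapped in turn at the bottom. For Hey1 the 2 iETV2 groups overlapped at the top and no other neighbours did.

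The pattern of one gene over the 18 libraries can be set against another as a description, since the libraries share groups and experiments. Jag1 and Hes1 were most alike (Pearson r = 0.95 of log2 CPM), followed by Hes1 and Hey1 (0.88) and Jag1 and Hey1 (0.87). Notch1 and Jag2 were the most unlike pair (-0.88). Among 26206 genes that were expressed and named, the one most like Notch4 was Cth (r = 0.96), followed by Pdlim5 and Pde4d (0.96 and 0.95). For Hey1 these were Rspo3 (0.99), Gdi2 (0.99) and Mogat2 (0.98), and for Jag1 Zfhx4, Dact1 and Dgkk (0.98 each). For Dll1 Pclo came first (0.98), for Hes1 Zbtb18 (0.98), for Notch3 Frmd4b (0.98), for Jag2 Slc4a11 (0.97), for Notch1 Hmgcs1 (0.97) and for Notch2 Cd24a (0.97). Dll4 had no close match, with Gm8394 first at 0.84.

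A list of 46 other Notch pathway genes was described beside the 10. In iETV2 6 of them rose, 11 fell and 29 did not pass with DOX, with a median log2 change of -0.04, where 13.7% of all genes rose and 13.3% fell. Dlk1, a ligand of the delta-like kind that lacks the canonical receptor-binding domain, rose by 2.01 ± 0.16. Nrarp, a Notch target that promotes loss of the intracellular domain, rose by 0.97 ± 0.11, and Adam10, the protease of the first activating cut, by 0.58 ± 0.07. The Deltex ubiquitin ligases Dtx4 and Dtx1 fell (-0.84 ± 0.07 and -0.84 ± 0.09), as did the Fringe glycosyltransferase Lfng (-0.90 ± 0.10). The gamma-secretase subunit gene Aph1c fell by 1.37 on the log2 scale (SE 0.22), and the coactivator gene Maml2 by 0.58 (SE 0.09). Of the 7 other HES and HEY genes, Hes6 passed and was lower (-0.40 ± 0.10).

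With DOX in H188A 1 of 45 tested genes of this list rose, Aph1a of gamma-secretase (0.29 ± 0.06, adjusted p = 0.0371), and 1 fell, the corepressor Spen (-0.29 ± 0.06, adjusted p = 0.0375). Of all genes 2.22% rose and 0.801% fell there. In the interaction 8.22% of all genes were called higher and 6.2% lower. Of the 46 genes of the list 10 differed in response between the lines, 8 higher and 2 lower. Dtx4 (0.98 ± 0.09), Dtx1 (0.87 ± 0.12) and Lfng (0.88 ± 0.16) were among the higher, and Dlk1 (-3.21 ± 0.36) among the lower. Between the lines 15 of the 46 were higher and 19 lower in H188A with DOX, where 19.9% and 17.6% of all genes were called. Without DOX 14 were higher and 24 lower, where 19.7% and 18.6% of all genes were called. Rbpj, the DNA-binding partner of the receptors, was higher in H188A, by 1.42 ± 0.08 with DOX and 1.55 ± 0.08 without it. Dll3, a ligand that acts within the presomitic mesoderm, was lower (-2.84 ± 0.14 with DOX and -3.31 ± 0.14 without it), as was the gamma-secretase subunit Ncstn (-1.34 ± 0.07 with DOX and -1.44 ± 0.07 without it).

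In cells labelled DKO 18 of 43 tested genes of the list were higher and 21 lower, with a median of -0.03; of all genes 35.6% were higher and 33.7% lower. Dtx1 and Dtx4 were higher by 2.67 ± 0.09 and 1.90 ± 0.11, and Rbpj by 1.05 ± 0.04, whereas the coactivator gene Maml1 was lower (-0.65 ± 0.04). Dlk1 was lower (-4.63 ± 0.07), and so was Hey2, a HEY gene of arteries and the heart (-4.25 ± 0.14). Pofut1, which adds the fucose that receptors need, was lower (-1.04 ± 0.05), as was Adam10 (-0.75 ± 0.04). Of the 10 receptor cleavage genes 7 were lower and 2 higher.

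**Figure D4:**
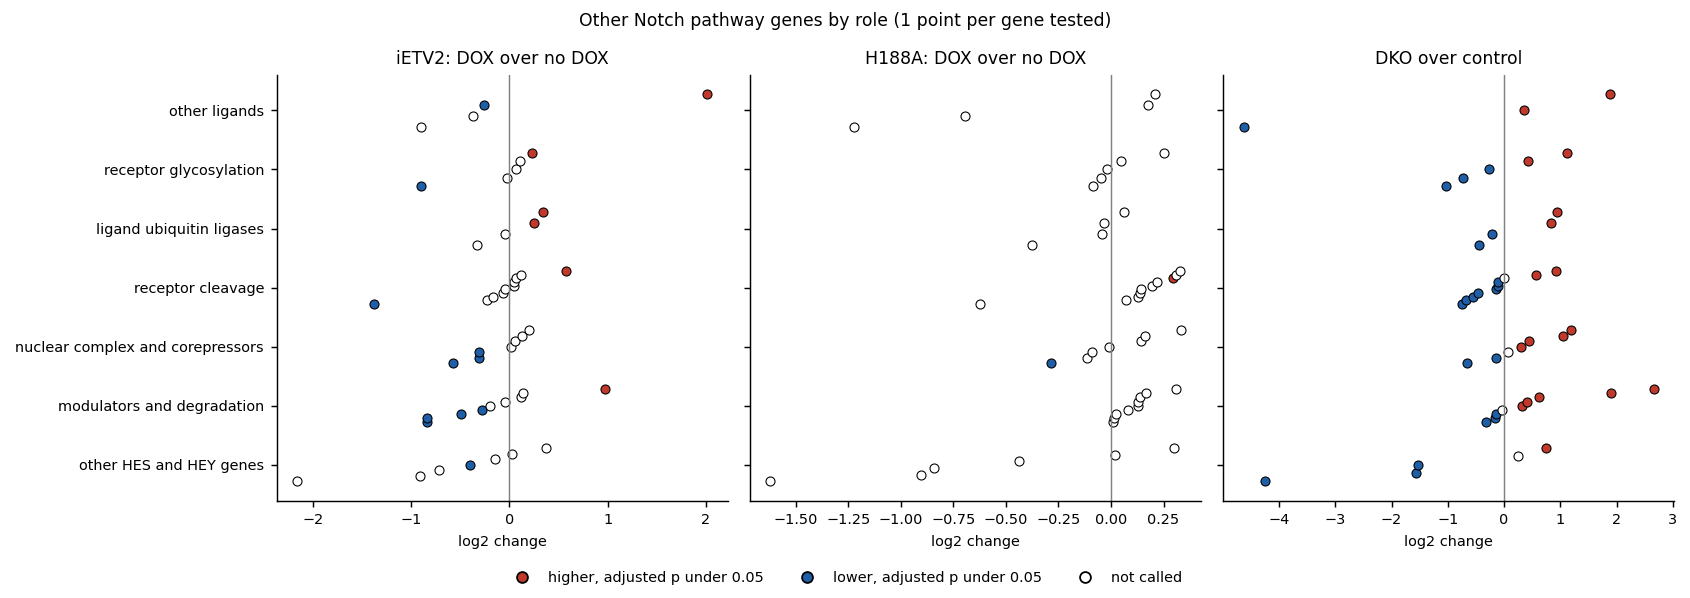
Log2 change (x axis, with its own scale in each panel) of the other Notch pathway genes, 1 point per gene tested, grouped by role, with DOX in iETV2, with DOX in H188A, and in cells labelled DKO over control cells. Filled points passed the test: 17 of 46 in iETV2, 2 of 45 in H188A and 39 of 43 for DKO.

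Genes of tissues in which Notch is known to act were also listed. With DOX in iETV2 4 of 7 arterial genes were higher and 2 lower, where 13.7% and 13.3% of all genes were called. Among them Nrp1 (1.86 ± 0.07), a coreceptor for VEGF, and Unc5b (0.78 ± 0.07) rose, whereas the arterial ligand Efnb2 fell (-0.99 ± 0.07). With DOX in H188A none of 6 tested arterial genes was called, where 2.22% of all genes were higher and 0.801% lower. In cells labelled DKO 6 of 7 were lower, among them Gja4 (-3.83 ± 0.20). Among 8 presomitic mesoderm genes 3 rose with DOX in the iETV2 line, the transcription factors Msgn1 (2.44 ± 0.08), Mesp1 (2.41 ± 0.13) and Tbx6 (0.94 ± 0.08), and 3 fell. Those named had the smallest adjusted p of the list. In H188A 7 of the 8 were lower than in iETV2, with DOX and without it, among them Tbx6 (-5.16 ± 0.12 with DOX and -4.20 ± 0.12 without it). Of all genes 17.6% were lower in H188A with DOX and 18.6% without it. In both comparisons of the lines Dll1, itself a presomitic ligand, was lower in H188A too. With DOX in iETV2 Dll1 fell (-0.49 ± 0.08), where 3 of these 8 genes rose and 3 fell. In cells labelled DKO Dll1 was higher (2.69 ± 0.15), with 3 of 7 tested presomitic genes higher and 3 lower. Of all genes 35.6% were higher and 33.7% lower there. The part of such cells was not tested.

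H3K9me3 was mapped in libraries whose titles name embryoid bodies, with 39144 to 50838 enriched regions per library with DOX and 37129 to 43599 without it. The authors deposited these regions for each library, so they are counted here with no test. Within 5 kb of a gene, 27.0% to 31.0% of coding genes had a region in the DOX libraries and 27.0% to 27.8% in the libraries without DOX. Of the 10 Notch genes 0, 0 and 2 had one in the DOX libraries and 1, 1 and 1 in the others. Notch2 accounted for all but one of these. A region inside the gene, 87.3 kb after its start in a gene of 136.8 kb, was listed in 1 of 3 libraries with DOX (authors' log2 fold over input 1.03) and in 3 of 3 without DOX (1.20, 1.28 and 1.01). It covers chr3:98100801-98104200 (mm10) when the libraries are joined. The other was a region at the lower-coordinate end of Hey1, chr3:8660801-8663600, in replicate 3 with DOX (0.538). The remaining 8 genes had none in any of the 6 libraries, and the region nearest to Notch4 was 15.7 to 16.9 kb away. RNA and ChIP libraries were not matched by line in the labels, so the 2 kinds of value stand side by side only.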

How the data were processed

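RNA was measured in 18 libraries and H3K9me3 in 6. For RNA the deposited tables hold raw counts, 1 table per library with 55487 Ensembl genes, of which 55141 had a symbol here. Per the file headers, each ChIP region has a log2 fold of ChIP over input. Input tables held a header alone and were not used. The submitters' processing notes name featureCounts 2.0.6, HTSeq 2.0.3, STAR 2.7.10b, DESeq2 1.18.1, StringTie 2.2.1 and Picard 3.0.0, besides ChIPseeker, DiffBind and Bowtie, and the builds mm10 and GRCm38. The role of each tool and the strand setting are not given in the sources used here.

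Counts were tested in R 4.3.3 with edgeR 4.0.16 (filterByExpr, TMM, glmQLFit, glmQLFTest), with limma 3.58.1 loaded by it, and Benjamini-Hochberg adjustment over all genes at 0.05. Each experiment had its own fit of 6 libraries; the interaction and the comparisons of lines used 12. SE is the log2 change over the square root of F. CPM use library totals without TMM factors, so folds of CPM can differ slightly from tested ones. Correlations between genes used log2 CPM with TMM and a prior count of 2. Alternatives were DESeq2 1.42.0, RLE size factors, no low-count filter, a filter of at least 1 CPM in 3 libraries, the replicate number as a block, and each library left out in turn. The test was tried on simulated data in which every gene had the same spread and no library stood apart. Such data cannot show how the test does on libraries as uneven as these. Replicates of a group differed by more than sampling noise, with chi-square over degrees of freedom of 4.34 to 140. Promoters came from RefSeq (GRCm38.p6), the window nearest the gene's start being taken. ChIP regions and figures were handled in Python 3.11.15 with matplotlib 3.10.9 and pandas 2.3.3.

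The 10 genes and all lists were chosen with earlier results of these data known. All 10 are described in every group. Of each other list, the text names genes from the 3 per comparison with the smallest adjusted p among those called, with Etv2, Kdm4a and Kdm4c. For each of the 10 the text names up to 3 genes with the highest r.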

Additional observations from a re-analysis of the deposited data

Results flagged for a closer look

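The DOX response of 3 genes differed between the 2 lines by the interaction test, H188A response minus iETV2 response. Notch4 differed by -1.39, with 7.63 ± 0.33 CPM with DOX and 7.92 ± 1.0 CPM without DOX in H188A, and 34.3 ± 1.3 CPM with DOX and 13.2 ± 0.82 CPM without DOX in iETV2. Notch2 differed by 0.74, and its untreated level was itself lower in H188A (138 ± 6.9 CPM) than in iETV2 (268 ± 15 CPM). Jag2 differed by 0.40, with an adjusted p near the threshold. Line and experiment cannot be told apart in these tests.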

How the results depend on the processing

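Calls for DKO held under every alternative, as did the H188A fall of Dll1. With DOX in H188A 637 genes were called, against 1443 with DESeq2, 423 with RLE size factors, 2032 with no low-count filter and 263 with the replicate block, and 81 to 1839 with 1 library left out. In the interaction 3 of the 10 genes were called, 5 under the stricter filter and 6 with the replicate block, and 2 to 3 with 1 library left out. No value that turned direction was called. With DOX in H188A, Notch4 (-0.0011) became 0.056 with no filter, 0.0035 with the block and 0.010 in the fit of 12 libraries, and -0.044 to 0.084 with 1 library left out; Dll4 (-0.77) ran from -1.31 to 0.0084. In iETV2, Hes1 ran from -0.028 to 0.049 and Hey1 from -0.073 to 0.15 with 1 library left out. The Jag1 interaction (-0.05) was 0.11 with no filter and up to 0.0090 with 1 library left out. The cause was not tested.

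The replicate numbers were not taken as pairs in the main tests, and whether they pair the samples was not settled. Correlations of same-numbered libraries ran from 0.07 to 0.58 in iETV2, from -0.24 to 0.37 in H188A and from -0.01 to 0.03 for DKO. Libraries correlated best with their own number in 2, 1 and 1 of 3 cases. With DOX in iETV2 5939 genes were called, and 8380 with the replicate block. With the replicate block Dll4 (1.12, adjusted p = 0.0142) and Jag1 (-0.13, adjusted p = 0.0302) passed with DOX in iETV2, and Notch1, Notch3 and Dll4 in the interaction (adjusted p = 0.0327, 0.0223 and 0.0484). Dll4 had few counts, 22 to 86 per library in iETV2, and its values moved with single libraries.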

Other observations

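Venous genes were listed beside the arterial ones. With DOX in H188A 3 of 4 rose, Nrp2 (0.67 ± 0.07), a coreceptor for VEGF, Ephb4 (0.27 ± 0.05), the receptor of venous endothelium, and Aplnr (2.68 ± 0.59). Aplnr was low in H188A, at 2.88 ± 0.12 CPM with DOX and 0.493 ± 0.46 CPM without DOX (SD, n = 3 each, adjusted p = 0.0439). In iETV2 it averaged 190 CPM with DOX and 263 CPM without DOX. With DOX 1 of the 4 was higher and 3 were lower in H188A than in iETV2, where 19.9% and 17.6% of all genes were called. With DOX in iETV2 Nrp2 rose (2.73 ± 0.07) and Aplnr fell (-0.45 ± 0.07), and in cells labelled DKO 4 of 4 were lower. Of all genes 2.22% rose with DOX in H188A, in iETV2 13.7% were higher and 13.3% lower with it, and 33.7% were lower in cells labelled DKO. Adjusted p is that of edgeR, under 0.05 for each.

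Of the 7 other HES and HEY genes, 3 were higher and 2 lower in H188A than in iETV2, both with DOX (19.9% and 17.6% of all genes) and without it (19.7% and 18.6%). Hes5, a Notch target of neural progenitors, was higher by 4.18 ± 0.74 with DOX and 2.44 ± 0.64 without DOX, Hes3 by 1.56 ± 0.31 and 1.68 ± 0.30, and Hes6 by 0.81 ± 0.10 and 0.38 ± 0.10. Hes5 levels were low, with means of 1.97 CPM in H188A and 0.119 CPM in iETV2 with DOX, and 2.75 and 0.542 CPM without DOX. With DOX its libraries ran from 0.789 to 4.21 CPM in H188A and from 0.0147 to 0.218 CPM in iETV2. The neural marker Sox1 was higher as well, by 5.03 ± 0.20 with DOX and 3.13 ± 0.17 without DOX. The sum of 9 neural markers was 74.3 to 92.3 CPM in H188A and 55.5 to 61.8 CPM in iETV2 with DOX. Without DOX it was 90.3 to 99.2 CPM in H188A and 102 to 112 CPM in iETV2. The largest part of this sum was Nes, which averaged 36.2 ± 2.5 CPM in H188A and 52.2 ± 3.8 CPM in iETV2 with DOX. Without DOX Nes averaged 42.4 ± 2.0 CPM in H188A and 97.1 ± 4.5 CPM in iETV2 (SD, n = 3 each). By number, 3 of the 9 markers were higher and 1 lower in H188A with DOX, and 5 higher and 1 lower without it. The lower one was Nes both times.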
